A study of Arabidopsis thaliana with 16 samples.

Results

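Petals of Arabidopsis thaliana that overexpress the flowering-time regulator CONSTANS (CO) were compared with petals of both genotypes in which CO is close to absent. The overexpressor, 35S:CO, carries CO under the 35S promoter, a viral promoter that is active in most plant tissues. The controls were the wild type Col-0 and co-10, which carries a null allele of CO. All plants grew in long days, and petals were taken at ZT4 and at ZT16, counted in hours from lights on. The comparison used 12 of the 16 RNA sequencing libraries of the series, chosen by their labels: 4 of 35S:CO (2 at each time) against 8 controls (2 of each genotype at each time), with time as a term of the fit. Col-0 and co-10 were pooled because CO was under 1 FPKM in both. Replicates are labelled as biological. The labels do not say how old the flowers were, how many plants went into a sample or how many independent 35S:CO lines were used, so the properties of a single transgenic line and those of CO overexpression cannot be told apart.

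CO is a B-box protein with a CCT domain that acts in the nucleus. In leaves it is stable in the light at the end of a long day, when it works with NF-Y subunits at short elements in the promoter of FT. FT is the florigen, a small mobile protein that travels from the phloem to the shoot apex and starts flowering. Petals are short-lived organs that lose most of their chloroplast function as they open. Their ageing and shedding are known to respond to ethylene and jasmonate.

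The authors deposited 1 column of values per library, read here as FPKM, a unit inferred from the values because the header names none. FPKM corrects for library size and transcript length but hides the number of reads, and the reads could not be recovered from the steps between low values, so the depth is unknown. Petal libraries summed to 615630 to 1096390 FPKM and had 11490 to 18240 of 32833 loci listed at 0. The fewest loci were detected in co-10 ZT4 replicate 2, which also stood apart on the second axis of variation, at -104 against -24.8 to 34.6 for the other 11 libraries. Ribosomal RNA loci took 12.0% to 48.8% of the sum in 35S:CO and 3.82% to 38.8% in the controls. A bulk sample cannot tell fewer cells of a type from less RNA per cell. Of the petal identity genes, AP3, PI, SEP1, SEP2, SEP3 and AP1 were expressed in all 12 libraries, and the 7 genes of that list summed to 1570 to 2214 FPKM in 35S:CO and 1035 to 2428 FPKM in the controls. SEP4, the seventh, was low throughout, at 0.850 to 2.79 FPKM in 35S:CO against 0 to 0.7001 FPKM, and was called higher (1.35 ± 0.26, adjusted p = 0.0155). Stamen and carpel genes summed to 26.8 to 36.2 FPKM in 35S:CO and 16.5 to 38.5 FPKM in the controls, and seed and ovule genes to 16.5 to 32.9 and 17.4 to 30.2 FPKM, with none of either list called and 7 of 10 seed genes listed at 0 in all 12 libraries.

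Of 17876 loci that reached 1 FPKM in at least 2 libraries, 297 differed between 35S:CO and the controls at an adjusted p under 0.05 (1.66%, limma on log2(FPKM + 1)). Of these, 173 were higher in 35S:CO petals (0.968% of those tested) and 124 were lower (0.694%). The 173 higher loci changed more, with a median difference of 1.83 on the log2(FPKM + 1) scale, against -1.16 for the 124 lower loci. A change of more than 2-fold was found in 164 higher and 96 lower loci, and one of more than 4-fold in 68 and 11. The median difference over all tested loci was -0.03, with 8300 loci above 0 and 9576 below 0. An unadjusted p under 0.05 in limma was found in 2105 of the 17876. Such counts for the gene lists below are to be read beside these. In 157 of the higher and 116 of the lower loci, the 4 overexpressor libraries did not overlap with the controls at either time, a pattern seen upward in 1.71% and downward in 2.08% of all tested loci (3.78% in all). Against Col-0 alone 160 loci passed (0.895%), against co-10 alone 254 (1.42%), at ZT4 alone 16 (0.0895%) and at ZT16 alone 339 (1.9%). All 297 had the same sign at ZT4 and at ZT16, which their choice by the mean difference over both times favours. Of these, 132 of the higher and 87 of the lower loci differed more at ZT16. The share of all tested loci that differed more at ZT16 was not counted. The count rests in part on single libraries: it was 140 without 35S:CO ZT16 replicate 1, 142 without 35S:CO ZT16 replicate 2, 168 without 35S:CO ZT4 replicate 1 and 480 without Col-0 ZT4 replicate 1, and 28 loci passed a test against a 2-fold limit.

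**Figure D1:**
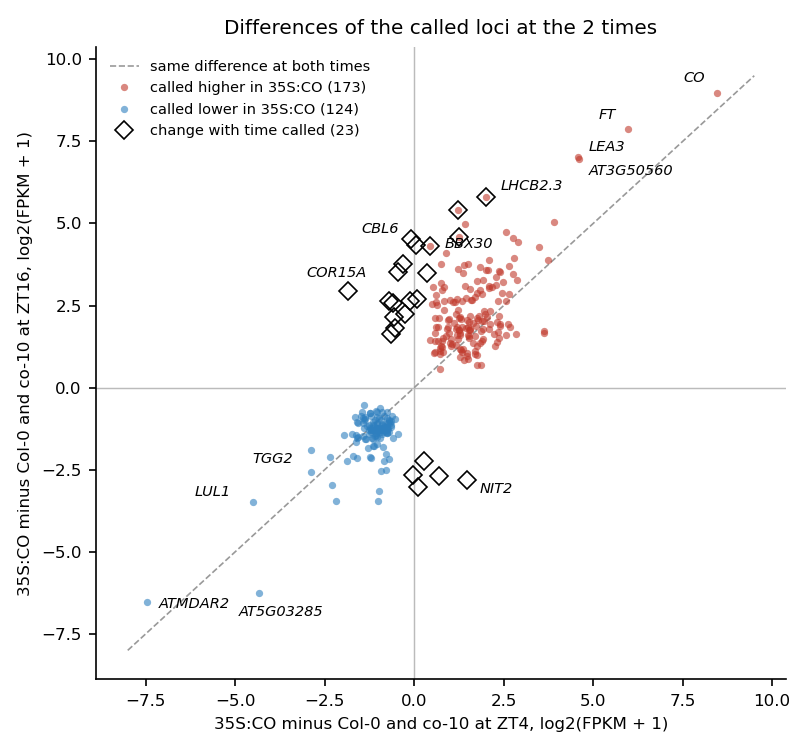
Difference of 35S:CO from Col-0 and co-10 petals at ZT4 (x axis) and at ZT16 (y axis), on the log2(FPKM + 1) scale, for the 297 called loci and the 23 loci whose difference changed with time (diamonds). The 297 called loci lie at upper right and lower left, which their choice by the mean over both times favours. Of them, 219 lie farther from 0 at ZT16 than at ZT4.

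The label 35S:CO was checked by CO itself (chromosome 5, 5170162 to 5173085). CO stood at 472 and 414 FPKM in 35S:CO at ZT4 and at 625 and 507 FPKM at ZT16, while the lowest, median and highest of the 8 controls were 0.0256, 0.135 and 0.703 FPKM. All 4 libraries labelled 35S:CO were far above all 8 controls. The low level in the controls is what put them together and is no finding. CO was 8.73 ± 0.20 (SE) higher on the log2(FPKM + 1) scale. The locus AT5G15843, on the opposite strand inside CO, was also called higher (2.49 ± 0.25, adjusted p = 9.98e-05). The library kit keeps strand, but whether reads were counted by strand is not stated, so reads of AT5G15843 and of CO cannot be told apart here.

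FT (chromosome 1, 24331373 to 24333999) was the transcript that rose most after CO. It stood at 186 and 111 FPKM in 35S:CO at ZT4 and at 813 and 352 FPKM at ZT16, and at 0, 1.42 and 4.49 FPKM (lowest, median, highest) in the controls. The lowest overexpressor library was above every control at each time. FT was 6.92 ± 0.47 higher on the log2(FPKM + 1) scale (adjusted p = 1.87e-06). TSF, the closest relative of FT and also a floral promoter, stood at 3.95 and 3.34 FPKM at ZT4 and at 35.2 and 14.6 FPKM at ZT16, against 0 to 1.98 FPKM in the controls. It was 2.80 ± 0.39 higher (adjusted p = 0.00177), again without overlap at either time. BFT, a member of the same family that delays flowering when overexpressed, was listed at 0 in all 8 controls and in 1 overexpressor library, and at 5.16, 5.46 and 1.79 FPKM in the others (adjusted p = 0.0476). BFT passed in 1 of the 12 fits that left out a single library. FT, TSF and BFT were the 3 genes called higher among the 16 tested genes of a flowering list, and none was called lower. The list's median difference was 0.03. SOC1, a MADS-box gene that acts downstream of FT in the shoot apex, stood at 12.3 to 37.4 FPKM in 35S:CO and at 4.18 to 31.0 FPKM in the controls, and its difference of 0.56 ± 0.32 did not pass (adjusted p = 0.578).

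The 250 bases before the start of FT are shown because they hold 2 copies of the CO-responsive element, searched on both strands in a shorter form, TGTGNNATG, and a longer form with 1 more base before ATG. The shorter form is at 83 to 75 and the longer at 24 to 15 bases before the start. The same window of TSF is shown beside it and holds neither form, nor CACGTG, AAAATATCT or ACGTGNC. Matches of CCAAT, which was in 48.1% of all promoters, are not marked in these sequences. The sequences are from RefSeq, build TAIR10.1, for FT at chr1:24331123-24331372, plus strand and for TSF at chr4:11003011-11003260, minus strand, and capitals mark the matches.
FT: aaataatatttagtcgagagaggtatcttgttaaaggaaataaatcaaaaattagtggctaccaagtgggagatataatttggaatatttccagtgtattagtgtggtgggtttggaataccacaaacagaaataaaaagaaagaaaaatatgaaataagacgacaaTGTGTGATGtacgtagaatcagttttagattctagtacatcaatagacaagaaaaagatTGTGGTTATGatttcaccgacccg
TSF: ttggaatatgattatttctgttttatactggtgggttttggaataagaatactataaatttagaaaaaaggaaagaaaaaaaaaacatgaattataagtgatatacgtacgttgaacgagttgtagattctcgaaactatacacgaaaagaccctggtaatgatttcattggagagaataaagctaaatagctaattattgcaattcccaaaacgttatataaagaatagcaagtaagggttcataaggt

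**Figure D2:**
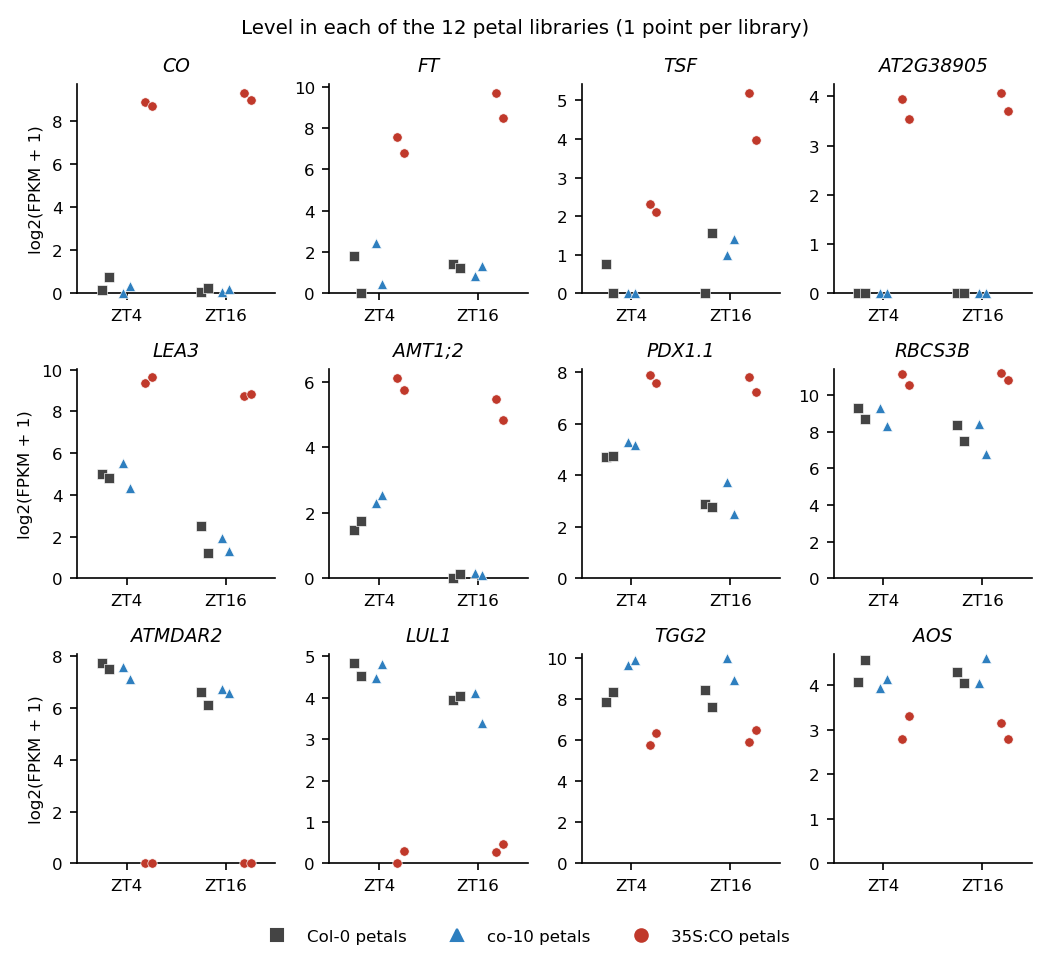
Level of 12 transcripts in each petal library as log2(FPKM + 1), with ZT4 and ZT16 side by side and 1 point per library. Red circles are 35S:CO, black squares Col-0 and blue triangles co-10. In each panel the 35S:CO libraries lie above or below all controls of the same time.

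The B-box family of CO was represented beyond CO itself. In a list of 37 B-box and light signalling genes, all tested, 5 were called higher (CO, BBX29, BBX30, BBX31 and BBX32) and 0 lower, and the median difference was 0.05. All 4 besides CO are small proteins with a single B-box. BBX32, which in Arabidopsis represses light signalling and delays flowering, stood at 27.8 and 35.7 FPKM in 35S:CO at ZT4 and 16.3 and 30.7 FPKM at ZT16, against 0.708, 2.08 and 10.1 FPKM (lowest, median, highest) in the controls. It rose by 2.97 ± 0.32 (adjusted p = 2.07e-04). BBX31, a microprotein of photomorphogenesis, stood at 27.0 and 21.1 FPKM at ZT4 and 11.0 and 13.5 FPKM at ZT16, against 0, 1.15 and 5.43 FPKM. It rose by 2.96 ± 0.29 (adjusted p = 9.98e-05), and neither gene overlapped with the controls at either time. BBX30, a microprotein that binds CO and holds back FT, stood at 66.3 and 60.2 FPKM in 35S:CO at ZT4, close above the 44.5 to 49.97 FPKM of the controls. At ZT16 it stood at 19.5 and 20.6 FPKM while the controls had 0 to 0.165 FPKM, so that most of its overall difference of 2.37 ± 0.54 (adjusted p = 0.0415) came from dusk. BBX29 rose by 1.4 ± 0.28 (adjusted p = 0.0197). With 1 library left out at a time, BBX30 passed in 4 of 12 fits and BBX29 in 8, with a highest adjusted p of 0.200 and 0.122. The photoreceptors, COP1, the SPA genes, HY5 and the PIF genes of the list were not called.

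The start of BBX30 is shown because both forms of the CO-responsive element follow each other there, at 232 to 224 and 225 to 216 bases before the start, with the G-box CACGTG at 72 to 67. The first 2 overlap. The sequence is RefSeq TAIR10.1, chr4:8708591-8708840, plus strand, with the matches in capitals.
BBX30: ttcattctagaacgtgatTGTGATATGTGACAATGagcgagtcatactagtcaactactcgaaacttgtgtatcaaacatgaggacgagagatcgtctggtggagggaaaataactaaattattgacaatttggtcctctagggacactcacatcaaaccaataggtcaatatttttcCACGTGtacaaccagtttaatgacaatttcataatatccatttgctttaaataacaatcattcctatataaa

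LHY, a MYB repressor that peaks at dawn, was the 1 gene called among the 13 morning-phased clock genes. It stood at 46.4 and 29.2 FPKM in 35S:CO at ZT4 and at 14.4 and 26.9 FPKM at ZT16, against 10.9 to 24.8 and 1.12 to 3.39 FPKM in the controls. The groups did not overlap at either time, and the difference was 1.83 ± 0.35 (adjusted p = 0.0151), though it did not pass without 35S:CO ZT16 replicate 1 or without replicate 2 (highest adjusted p = 0.0743). Of the 13, 12 had a difference above 0 (8300 of 17876 over all tested loci), with a median of 0.38. That median was -0.06 at ZT4 and 0.78 at ZT16. CCA1, the partner of LHY, stood at a difference of 0.33 ± 0.25 (adjusted p = 0.728). None of the 14 evening-phased genes passed in limma, with 2 at an unadjusted p under 0.05 (2105 of 17876 over all tested loci). The smallest p-values among the 14 were those of GI and CDF5. GI, which acts on CO stability and transcription in leaves, stood at 8.71, 12.1, 7.69 and 11.8 FPKM in 35S:CO and at 3.07 to 8.80 FPKM in the controls (0.90 ± 0.25, adjusted p = 0.102). CDF5, a DOF repressor of CO, was at a difference of 0.89 ± 0.27 (adjusted p = 0.138). The 2 clock lists do not hold every relative of their members. ASG4, also known as RVE3, and AT1G26790, also known as CDF6, were on neither list and were called higher (2.09 and 1.99). They were picked after the values were seen.

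Transcripts for carbon fixation were among the most abundant that rose. RBCS3B, a small subunit of Rubisco, stood at 2219 and 1464 FPKM in 35S:CO at ZT4 and at 2374 and 1794 FPKM at ZT16, against 107, 332 and 620 FPKM (lowest, median, highest) in the controls. All 4 overexpressor libraries were above all 8 controls. RBCS3B rose by 2.60 ± 0.36 (adjusted p = 0.00147) and its neighbour RBCS2B by 2.33 ± 0.37 (adjusted p = 0.00479). The RBCS genes are near-identical copies, so how reads were shared between them is uncertain. RCA, the activase that frees Rubisco of bound sugars, stood at 1994, 1915, 1478 and 1475 FPKM in 35S:CO, and the controls had 636 to 954 FPKM at ZT4 and 166 to 364 FPKM at ZT16. It rose by 1.98 ± 0.28 (adjusted p = 0.00161). Without overlap, GAPA, a subunit of the chloroplast glyceraldehyde-3-phosphate dehydrogenase of the Calvin cycle, rose by 1.47 ± 0.21 (adjusted p = 0.00186), from 44.4 to 96.1 FPKM in the controls to 181 to 226 FPKM.

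These 4 were all that was called among 18 tested carbon fixation genes, with 0 lower and a median difference of 0.72. At a scaling that left out ribosomal RNA and organelle loci the count was 6, and after quantile normalization 7. CP12-2, a small chloroplast protein that binds and inhibits Calvin cycle enzymes, went the other way. It is not a member of that list and was named for the size of its decrease. It stood at 15.2 and 16.3 FPKM in 35S:CO at ZT4 and at 35.8 and 33.9 FPKM at ZT16, below the 38.6 to 77.5 and 72.6 to 122 FPKM of the controls. It fell by 1.57 on the log2(FPKM + 1) scale (± 0.20, adjusted p = 6.81e-04). The markers of green tissue summed to 2838 to 4659 FPKM in 35S:CO and to 637 to 3983 FPKM in the controls, and RCA and GAPA, 2 of the 7 that were tested, are the members that were called. Of these 7, 6 had a difference above 0, with a median of 0.06 at ZT4 and 1.63 at ZT16. Whether more green tissue in the 35S:CO samples contributes was not tested.

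Of 38 light-harvesting and photosystem genes, 1 was called higher and 1 lower, with a median difference of -0.11. LHCB2.3, which encodes an outer antenna protein of photosystem II, stood at 25.8 and 22.0 FPKM in 35S:CO at ZT4 and at 81.6 and 46.1 FPKM at ZT16. The controls had 3.12 to 11.9 FPKM at ZT4 and 0 to 0.305 FPKM at ZT16, so their levels were lower at dusk, while those of 35S:CO were higher. LHCB2.3 rose by 3.91 ± 0.59 (adjusted p = 0.00313), and its sequence is close to that of other LHCB2 genes, which leaves the split of reads uncertain. LHCB4.3, a minor antenna gene, fell by 1.15 (± 0.21, adjusted p = 0.0110), from 64.7 to 109.7 FPKM in the controls at ZT16 to 45.9 and 30.7 FPKM. It did not pass without 35S:CO ZT16 replicate 2 (adjusted p = 0.0710). The start of LHCB2.3 holds the longer form of the CO-responsive element on the opposite strand at 116 to 107 bases before the start, CACGTG at 88 to 83 and ACGTGNC at 37 to 31. It is shown from RefSeq TAIR10.1, chr3:10255656-10255905, plus strand, with those matches in capitals.
LHCB2.3: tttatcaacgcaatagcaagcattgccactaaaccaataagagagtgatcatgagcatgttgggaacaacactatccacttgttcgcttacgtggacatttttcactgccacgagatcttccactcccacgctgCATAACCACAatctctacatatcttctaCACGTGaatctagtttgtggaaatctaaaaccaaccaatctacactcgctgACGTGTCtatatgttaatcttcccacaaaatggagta

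Sugar export and starch genes rose in 5 of 40 tested members, with 0 lower and a list median of -0.02. Of the sucrose exporters, SWEET13 stood at 40.8 and 23.1 FPKM in 35S:CO at ZT4 and at 109 and 74.2 FPKM at ZT16, against 4.94, 11.2 and 19.8 FPKM (lowest, median, highest) in the controls. SWEET13 was 2.13 ± 0.34 higher (adjusted p = 0.00479), and SWEET11, which loads sucrose into the phloem of leaves, 1.01 ± 0.17 (adjusted p = 0.00762). SWEET15, also known as the senescence-associated gene SAG29, stood at 501 and 315 FPKM at ZT4 and at 569 and 574 FPKM at ZT16, against 218 to 263 and 101 to 244 FPKM. All 3 stood above every control of the same time, and the difference of SWEET15 was 1.41 ± 0.30 (adjusted p = 0.0292). GBSS1, the granule-bound starch synthase, stood at 12.8 and 5.77 FPKM in 35S:CO at ZT16, while 3 of 4 controls were listed at 0 and the other at 0.316 FPKM. At ZT4 its groups overlapped, and the overall difference was 1.96 ± 0.41 (adjusted p = 0.0278). BAM9, a member of the beta-amylase family, rose by 0.95 ± 0.21 (adjusted p = 0.0370). CT-BMY, another beta-amylase gene, also known as BAM3, was also called higher. It was not counted, because the list symbol BAM3 was matched to a different locus. Whether BAM1 and BAM2 were matched to the genes meant was not checked, so the count and median may include genes outside starch metabolism. The list count therefore leaves out at least that increase among starch genes. With 1 library left out at a time, GBSS1 passed in 7 of 12 fits, SWEET15 in 6 and BAM9 in 5, with highest adjusted p-values of 0.130, 0.158 and 0.186.

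Nitrogen transport and metabolism held 4 higher genes and 0 lower among 27 tested, with a list median of -0.01. AMT1;2, an ammonium transporter best known from roots, stood at 67.7 and 53.4 FPKM in 35S:CO at ZT4 and at 43.9 and 27.4 FPKM at ZT16. The controls ranged from 1.79 to 4.89 FPKM at ZT4 and from 0 to 0.125 FPKM at ZT16. It was 4.48 ± 0.29 higher (adjusted p = 9.52e-07). The root marker genes summed to 9.80 to 19.9 FPKM in 35S:CO and 6.00 to 18.3 FPKM in the controls, with 3 of 9 (PHT1;1, RHD6 and PLT1) listed at 0 in all 12 libraries. NIA2, the main nitrate reductase, stood at 25.7, 59.6, 68.3 and 62.8 FPKM in 35S:CO and at 3.20 to 8.99 FPKM in the controls. It rose by 2.85 ± 0.29 (adjusted p = 1.37e-04). GLU1, the ferredoxin-dependent glutamate synthase that also takes back ammonium from photorespiration, rose by 1.68 ± 0.29 (adjusted p = 0.00733). ARGAH2, an arginase that frees nitrogen from arginine and responds to jasmonate, stood at 121, 153, 121 and 65.9 FPKM in 35S:CO. Its controls had 19.7 to 85.3 FPKM at ZT4 and 0.737 to 3.21 FPKM at ZT16, and the difference was 3.19 ± 0.59 (adjusted p = 0.0126). It did not pass without either of the 35S:CO ZT16 libraries (highest adjusted p = 0.0696).

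LEA3, a member of the late embryogenesis abundant proteins, had the largest increase after CO and FT. It stood at 663 and 792 FPKM in 35S:CO at ZT4 and at 423 and 450 FPKM at ZT16, against 19.4 to 44.8 FPKM and 1.29 to 4.79 FPKM in the controls. The lowest overexpressor library was above the highest control at each time, and the difference was 5.81 ± 0.41 (adjusted p = 3.13e-06). The other called members of the list of 32 late embryogenesis, cold and abscisic acid genes fell: ABF3 and COR413IM1, with 29 not passing and a median of -0.14. ABF3, a bZIP factor that carries the abscisic acid response to its target genes, stood at 1.86, 2.36, 1.24 and 1.13 FPKM in 35S:CO and at 7.47 to 13.5 FPKM in the controls, without overlap. It fell by 2.06 (± 0.22, adjusted p = 2.10e-04). COR413IM1, a cold-regulated protein of the chloroplast envelope, fell by 1.32 (± 0.26, adjusted p = 0.0168), but did not pass without either 35S:CO ZT4 library or without 35S:CO ZT16 replicate 2 (highest adjusted p = 0.0761).

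AT2G38905, annotated as a low temperature and salt responsive protein, was listed at 0 in all 8 controls. In 35S:CO it stood at 14.5 and 10.6 FPKM at ZT4 and at 15.7 and 12.0 FPKM at ZT16, with little spread (adjusted p = 1.97e-07). Its start is shown because CACGTG occurs there 3 times, at 92 to 87, 85 to 80 and 62 to 57 bases before the start, overlapped by 3 matches of ACGTGNC, with AAAATATCT farther up. The sequence is RefSeq TAIR10.1, chr2:16244532-16244781, minus strand, with all matches in capitals.
AT2G38905: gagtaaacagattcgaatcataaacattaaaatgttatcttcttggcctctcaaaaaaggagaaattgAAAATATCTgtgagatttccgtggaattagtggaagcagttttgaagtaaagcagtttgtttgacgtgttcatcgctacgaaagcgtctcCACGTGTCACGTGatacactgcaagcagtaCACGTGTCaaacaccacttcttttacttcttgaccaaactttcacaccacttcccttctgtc

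Vitamin B6 and inositol genes rose in 3 cases, and ATMDAR2 was the 1 gene called lower in that list of 28, whose median was -0.02. PDX1.1, a subunit of pyridoxal phosphate synthase, stood at 235 and 192 FPKM in 35S:CO at ZT4 and at 224 and 150.5 FPKM at ZT16, against 4.66, 18.8 and 38.7 FPKM (lowest, median, highest) in the controls. PDX1L4, which lies close to it on chromosome 2 (16006749 to 16007722, against 16011233 to 16012515) and belongs to the same family, stood at 33.3, 28.5, 31.2 and 23.3 FPKM against 0.523, 2.05 and 5.65 FPKM. Both were separated from the controls at each time, with differences of 3.65 ± 0.33 (adjusted p = 3.75e-05) and 3.36 ± 0.28 (adjusted p = 1.32e-05). MIPS2, which makes inositol phosphate from glucose phosphate, stood at 103 and 70.0 FPKM at ZT4 and at 36.7 and 54.5 FPKM at ZT16, against 8.74 to 17.2 and 1.96 to 3.61 FPKM. It rose by 3.16 ± 0.26 (adjusted p = 1.31e-05).

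ATMDAR2, a monodehydroascorbate reductase that regenerates ascorbate, was listed at 0 in all 4 overexpressor libraries. The controls had 138, 184 and 209 FPKM (lowest, median, highest) at ZT4 and 68.7, 95.5 and 106 FPKM at ZT16 (adjusted p = 7.86e-11). It lies on chromosome 5 at 922048 to 924728 and is the end of a stretch of 166 kb, from 758374 to 924728, with 6 called loci, all lower. No other group of called loci within 100 kb of each other was as large, and the next had 4 members. LUL1, a RING ubiquitin ligase, stood at 0, 0.239, 0.210 and 0.390 FPKM in 35S:CO and at 9.54 to 27.3 FPKM in the controls (-4.0 ± 0.24, adjusted p = 5.29e-07). AT5G03285, annotated as a non-coding RNA, stood at 0, 0.519, 0 and 0.281 FPKM against 9.11 to 116 FPKM (-5.28 ± 0.47, adjusted p = 3.05e-05). These 3 transcripts were at or near 0 in all 4 overexpressor libraries and in none of the controls. In seedlings of the same study at ZT16, ATMDAR2 stood at 2.22 and 3.77 FPKM in 35S:CO and at 86.4 and 74.0 FPKM in Col-0. It was called lower there, as were LUL1 (-2.25) and AT5G03285 (-2.12). The labels do not give the background of the 35S:CO line, so a difference of that line from Col-0 in this stretch and a response to CO cannot be told apart.

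The other 3 called loci of the stretch fell less. CPUORF47, a conserved upstream peptide gene that overlaps LUL1 by 64 bases on the other strand, kept 9.97 to 25.4 FPKM in 35S:CO against 33.8 to 146 FPKM (-1.70 ± 0.27, adjusted p = 0.00480). AT5G03550, with a MATH domain, stood at 0.361 to 0.836 FPKM against 1.53 to 17.5 FPKM (adjusted p = 0.0378) and passed in 6 of 12 fits without a single library. AT5G03495, an RNA-binding protein gene, stood at 0 to 0.0792 FPKM against 0 to 9.65 FPKM (adjusted p = 0.0290). The 36 tested loci between them that were not called had differences of -0.61 to 0.52 with a median of -0.10. Within 100 kb of CO, by contrast, AT5G15843 was the 1 other called locus among 47 tested. Over the chromosomes, 1.33% to 1.98% of tested loci were called, and 138 of the 296 called nuclear loci had another within 100 kb. The share of all tested loci with a called locus within 100 kb was not counted, so the 138 do not show clustering.

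**Figure D3:**
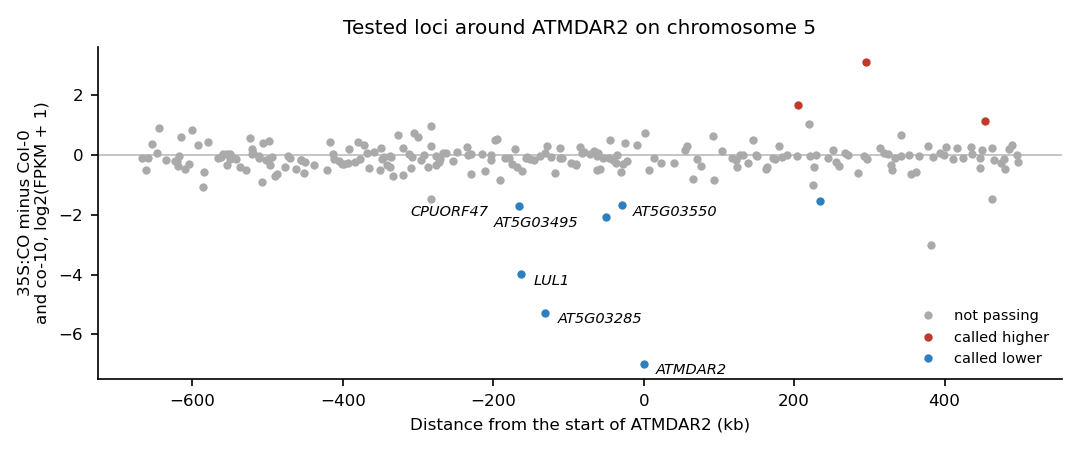
Difference of 35S:CO from Col-0 and co-10 petals, on the log2(FPKM + 1) scale, for tested loci around ATMDAR2 on chromosome 5, by distance from the start of ATMDAR2 in kb. The 6 named loci are lower in 35S:CO, and the 36 other tested loci between them lie at -0.61 to 0.52.

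The study sets CO beside jasmonate, a hormone of floral ageing. Of 16 tested genes of jasmonate synthesis, 1 was called, lower, and all 16 had differences below 0 with a median of -0.40. Over all tested loci, 9576 of 17876 were below 0. After rescaling without ribosomal RNA and organelle loci 15 of 16 were below 0, without 35S:CO ZT4 replicate 1 it was 14, and against Col-0 alone 13. AOS, the allene oxide synthase that makes the first committed step, stood at 5.90 and 8.83 FPKM in 35S:CO at ZT4 and at 7.83 and 5.96 FPKM at ZT16, against 14.4, 16.2 and 23.6 FPKM (lowest, median, highest) in the controls. The groups were apart at both times, and AOS fell by 1.21 (± 0.19, adjusted p = 0.00468). AOC1, the allene oxide cyclase that acts next, stood at 0 to 0.309 FPKM in 35S:CO and at 0.502 to 8.81 FPKM in the controls (-1.63 ± 0.39, adjusted p = 0.0525). LOX2, OPR3 and JAR1 stood at -0.46 ± 0.29, -0.29 ± 0.28 and -0.39 ± 0.16, and none of these passed.

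Myrosinases, which break down glucosinolates when tissue is wounded, were the 2 called members of 12 jasmonate-responsive defence genes, whose median was -0.34. TGG2 stood at 54.4, 81.6, 60.6 and 88.4 FPKM in 35S:CO and at 198, 422 and 1041 FPKM (lowest, median, highest) in the controls. It fell by 2.72 (± 0.43, adjusted p = 0.00480), and TGG1 by 2.23 (± 0.43, adjusted p = 0.0162), from 50.1 to 337 FPKM in the controls to 21.1 to 33.4 FPKM. Neither overlapped, but the controls differed from each other: 35S:CO had TGG2 at 1.94 below Col-0 and 3.5 below co-10 on the log2(FPKM + 1) scale. TGG1 did not pass without replicate 1 of 35S:CO at ZT4 or at ZT16 (highest adjusted p = 0.0803). Among 22 jasmonate signalling genes 0 were called in limma, with 3 at an unadjusted p under 0.05 (2105 of 17876 over all tested loci). The smallest p-values belonged to the JAZ repressors JAZ6 (-0.54 ± 0.19, adjusted p = 0.207) and JAZ3 (-0.49 ± 0.21, adjusted p = 0.344). Of 9 genes of jasmonate breakdown 0 were called and 1 had an unadjusted p under 0.05. JOX4, an oxidase that inactivates jasmonate, stood at 7.14 to 11.2 FPKM in 35S:CO and 0 to 8.25 FPKM in the controls (1.12 ± 0.45, adjusted p = 0.308), and IAR3 at -0.27 ± 0.17 (adjusted p = 0.638).

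Of 34 tested senescence genes SWEET15 was the 1 called, beside 1.66% called over all loci, and the median was 0.10. SAG12, a cysteine protease used as a marker of leaf senescence, stood at a difference of -0.14, ORE1, a NAC factor of leaf ageing, at 0.10, and BFN1, a nuclease of dying cells, at -0.18. None of 10 chlorophyll breakdown genes passed in limma (2 at an unadjusted p under 0.05), with the smallest p-values for CLH1, a chlorophyllase (-1.05 ± 0.30, adjusted p = 0.102), and SGRL, a relative of STAY-GREEN (0.44 ± 0.19, adjusted p = 0.370). None of 25 autophagy genes passed (0 at an unadjusted p under 0.05), and ATG8B and ATG8C came closest (-0.40 ± 0.20 and -0.30 ± 0.26). None of 24 ethylene and abscission genes passed (2 at an unadjusted p under 0.05). ACO4, an ethylene-forming enzyme, stood at 124 and 142 FPKM in 35S:CO at ZT4 above the 13.2 to 57.8 FPKM of the controls, and at 568 and 388 FPKM at ZT16 against 284 to 538 FPKM (adjusted p = 0.212). KNAT1, a repressor of abscission, was at -0.67 ± 0.29 (adjusted p = 0.363). A p that misses the threshold does not show that these genes were equal in both groups.

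Salicylic acid marker genes were called higher in 3 of 14 tested, with a median of 0.16. PR2, a glucanase, stood at 4.44, 3.59, 3.24 and 2.19 FPKM in 35S:CO and at 0 to 0.762 FPKM in the controls (1.85 ± 0.25, adjusted p = 0.00139). PR5, a thaumatin-like protein, stood at 8.82 and 3.02 FPKM at ZT4 and at 39.8 and 2.16 FPKM at ZT16, against 0 to 1.69 FPKM (adjusted p = 0.0153). PR1 stood at 15.1, 3.67, 10.4 and 1.28 FPKM against 0 to 2.32 FPKM and overlapped with the controls at ZT16 (adjusted p = 0.0382). PR1 passed in 4 of 12 fits without a single library, and PR5 did not pass without 35S:CO ZT4 replicate 1 (adjusted p = 0.0680). In all 3 replicate 1 of 35S:CO was above replicate 2 at both times. Of 19 flavonoid genes, PAL1 was called, the first enzyme of the phenylpropanoid pathway, at 1.04 ± 0.20 (adjusted p = 0.0153), though not without either 35S:CO ZT16 library (highest adjusted p = 0.0978). Of 28 genes of petal growth and cell wall 0 were called in limma (5 at an unadjusted p under 0.05), and CSLE1 (-1.64 ± 0.45, adjusted p = 0.0957) and XTH22 (-1.63 ± 0.45, adjusted p = 0.0984) came closest.

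**Figure D4:**
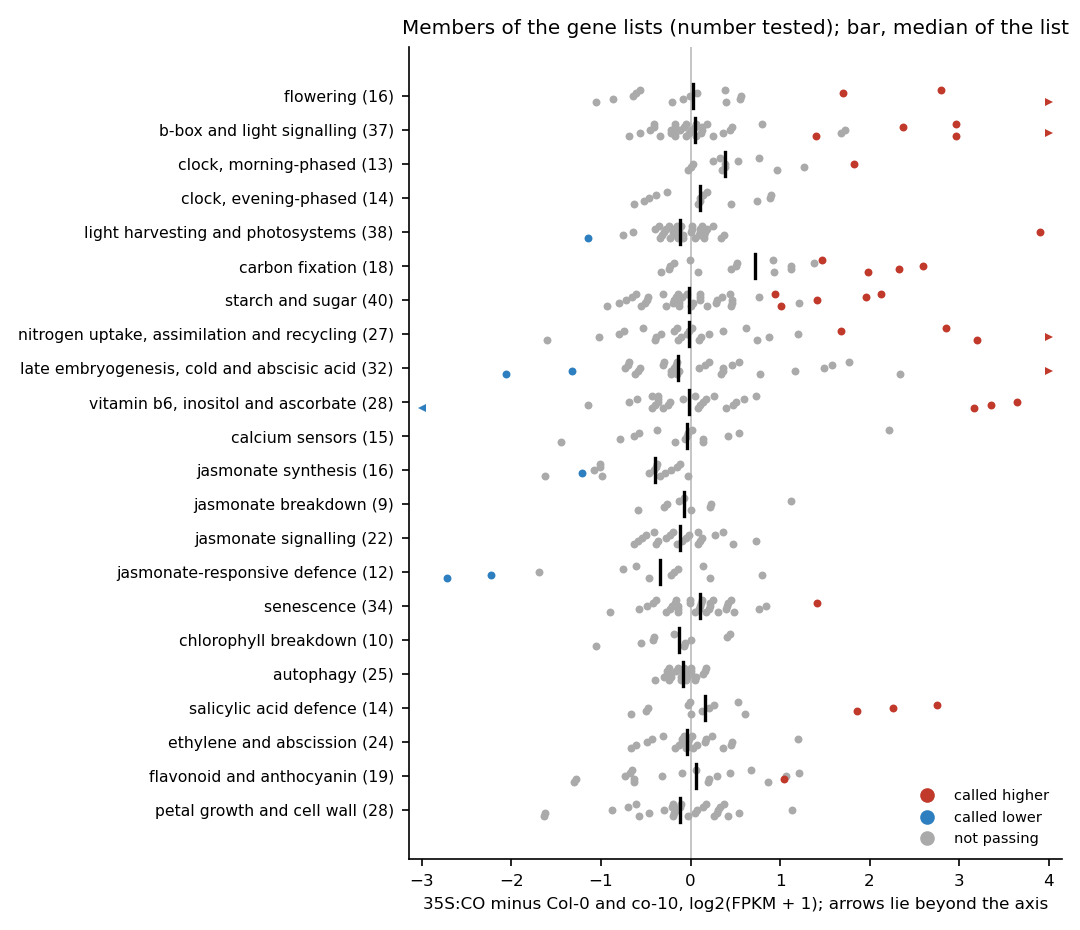
Difference of 35S:CO from Col-0 and co-10 petals, on the log2(FPKM + 1) scale, for each tested member of 22 gene lists (1 point per gene, number tested in brackets). Red points were called higher, blue points lower, grey points did not pass, black bars are list medians and arrows lie beyond the axis. Carbon fixation has the highest median, at 0.72, and jasmonate synthesis the lowest, at -0.40.

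Other transcripts with large increases belonged to none of the lists. AT3G50560, annotated as a Rossmann-fold oxidoreductase, stood at 211 and 117 FPKM in 35S:CO at ZT4 and at 141 and 131 FPKM at ZT16. The controls had 0 to 19.6 FPKM at ZT4 and 0 to 0.425 FPKM at ZT16, and the difference was 5.78 ± 0.65 (adjusted p = 2.51e-04). HIPP22, a heavy metal-associated protein, was abundant in both groups, at 802 to 1193 FPKM in 35S:CO against 34.5, 72.1 and 260 FPKM (lowest, median, highest), a rise of 3.66 ± 0.29 (adjusted p = 1.14e-05). AT2G25510, uncharacterized, stood at 98.2, 43.4, 98.5 and 40.6 FPKM against 0.963 to 8.51 FPKM (3.88 ± 0.43, adjusted p = 2.32e-04). AT1G24580, a RING protein gene, rose by 3.65 ± 0.42 (adjusted p = 2.87e-04), and AT5G04347, of the S1 self-incompatibility family, by 3.11 ± 0.28 (adjusted p = 3.41e-05). None of these 5 overlapped with the controls at either time.

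Among the remaining large decreases, XTH16, a cell wall xyloglucan enzyme, stood at 0, 1.04, 0 and 0 FPKM in 35S:CO against 1.18 to 7.84 FPKM (-1.89 ± 0.36, adjusted p = 0.0152). HIS1-3, a linker histone induced by drought, stood at 0.478 to 1.53 FPKM against 2.21 to 34.0 FPKM (-2.23 ± 0.51, adjusted p = 0.0433), and AT3G27360, a gene for histone H3.1, at 0.354 to 0.618 FPKM against 1.01 to 12.2 FPKM (-1.88 ± 0.40, adjusted p = 0.0285). Histone H3.1 is encoded by several near-identical genes, so the reads of AT3G27360 are uncertain. PLA2-GAMMA, a phospholipase known from pollen, stood at 0, 11.2, 8.55 and 4.99 FPKM against 16.8 to 47.7 FPKM (-2.40 ± 0.52, adjusted p = 0.0341). AT5G15030, a Sin3-like gene, stood at 0, 8.46, 7.69 and 0 FPKM against 10.1 to 39.1 FPKM (adjusted p = 0.0443), and AT5G61680, a pectin lyase-like gene, fell by 1.63 (± 0.34, adjusted p = 0.0241). With 1 library left out at a time, PLA2-GAMMA and AT5G15030 passed in 4 of 12 fits, HIS1-3 in 5, AT3G27360 in 6, and XTH16 and AT5G61680 in 9. Pollen and anther markers summed to 822 to 1257 FPKM in 35S:CO and to 581 to 3370 FPKM in the controls. Of their 7 tested members 0 were called and 6 stood below 0, and MS2, A9, AMS, MS1 and EXL4 were listed at 0 in all 12 libraries. These markers do not cover all pollen genes. Loci known from pollen were among the 124 called lower, such as STP11, COBL10 and PTEN1, picked after the values were seen. How many of the 124 are pollen genes was not counted. The part of pollen in the decreases was not tested.

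The difference between 35S:CO and the controls changed with time of day in 23 of the tested loci (0.129%), by the interaction of time and genotype group. For 18 of them it moved up from ZT4 to ZT16 and for 5 it moved down. 4 of the 23 were also among the 173 higher loci: BBX30, LHCB2.3, AT3G47295 and AT3G62990. In all 18 the control median was lower at ZT16 than at ZT4, and both 35S:CO libraries were above all 4 controls at ZT16. In 6 of the 18 they were also below all 4 controls at ZT4. AT3G47295, uncharacterized, stood at 144 and 94.9 FPKM in 35S:CO at ZT4 and 79.7 and 31.7 FPKM at ZT16, against 34.5 to 83.2 and 0 to 1.16 FPKM, so its difference went from 1.23 to 5.41. Its overall call was lost without either 35S:CO ZT16 library (highest adjusted p = 0.0865).

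In 8 of the 18 the groups overlapped at ZT4. Of 15 calcium sensor genes none was called in the overall difference (2 at an unadjusted p under 0.05), but CBL6 and CML38 were among the 23. CBL6, a calcineurin B-like calcium sensor, stood at 51.0 and 47.4 FPKM in 35S:CO at ZT4 within the 42.9 to 61.0 FPKM of the controls, and at ZT16 at 41.0 and 41.3 FPKM against 0 to 2.78 FPKM. The change was 4.59 (adjusted p = 0.0239). SQP1, a squalene epoxidase-like enzyme, stood at 607 and 643 FPKM at ZT4 and at 318 and 290.2 FPKM at ZT16, against 496 to 1033 and 9.41 to 24.0 FPKM (change of 4.29, adjusted p = 0.0115). BBX25, a double B-box gene of light signalling, stood at 107 and 96.1 FPKM at ZT4 and 25.5 and 32.1 FPKM at ZT16, against 87.1 to 152 and 0 to 2.25 FPKM (change of 4.07, adjusted p = 0.0169). These 3 transcripts overlapped with the controls in the morning and stood far above them at dusk. COR15A, a cold-regulated chloroplast protein, crossed over: 103 and 65.0 FPKM at ZT4 were below the 235 to 396 FPKM of the controls, and 34.3 and 18.5 FPKM at ZT16 above their 1.2 to 3.66 FPKM. Its difference went from -1.85 to 2.94 (adjusted p = 0.00271).

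In all 5 loci whose difference moved down, both 35S:CO libraries were below all 4 controls at ZT16. NIT2, a nitrilase, stood at 21.6 and 83.2 FPKM in 35S:CO at ZT4 and at 38.2 and 36.8 FPKM at ZT16, while the controls had 11.5 to 21.7 and 163 to 505 FPKM (change of -4.31, adjusted p = 0.0283). CML38, a calmodulin-like protein, stood at 1.16 to 2.83 FPKM in all 35S:CO libraries, against 1.04 to 1.35 FPKM in the controls at ZT4 and 15.4 to 43.8 FPKM at ZT16 (change of -3.14, adjusted p = 0.0480). HA4, a plasma membrane proton pump, changed by -3.39 (adjusted p = 0.0276), CYP706A1, a cytochrome P450, by -2.64 (adjusted p = 0.0473) and SCRL7, a small secreted peptide gene, by -2.49 (adjusted p = 0.0446). The number of such loci depends on single libraries, from 2 without either 35S:CO ZT16 library to 83 without co-10 ZT16 replicate 1.

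**Figure D5:**
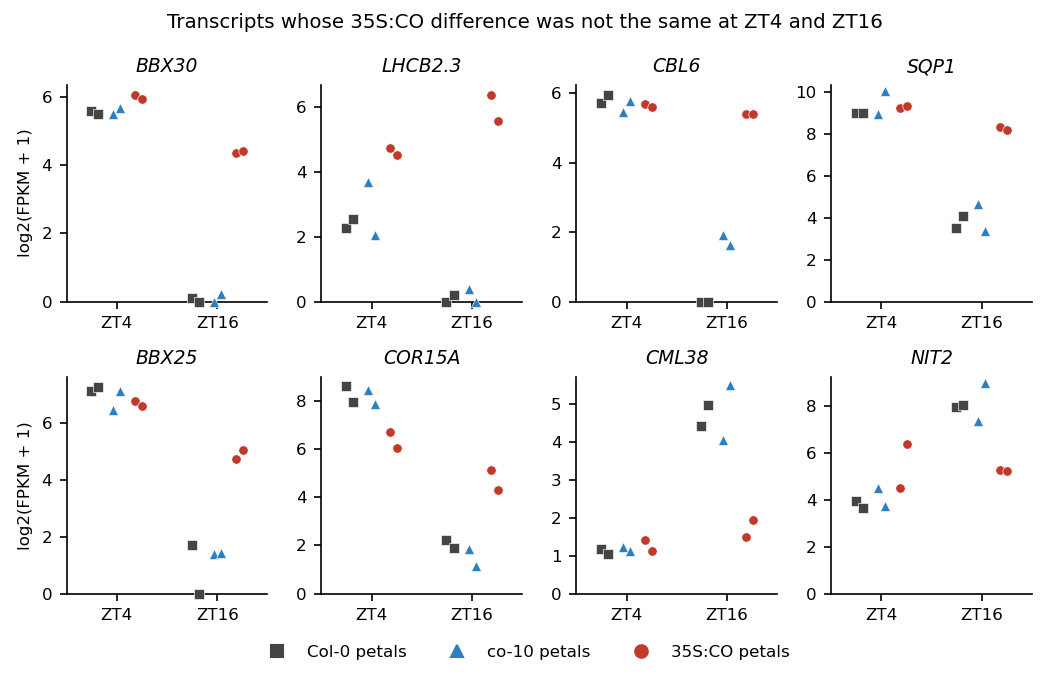
Level of 8 transcripts whose 35S:CO difference changed between ZT4 and ZT16, as log2(FPKM + 1), 1 point per library, with symbols for Col-0 (squares), co-10 (triangles) and 35S:CO (circles). BBX30, CBL6, SQP1 and BBX25 are close to the controls at ZT4 and above them at ZT16, and CML38 and NIT2 are below them at ZT16.

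The control genotypes differed little from each other where 35S:CO differed. Between co-10 and Col-0 petals, 1 of 17876 loci was called (0.00559%). Over the 297 loci called in 35S:CO, the median size of the difference between co-10 and Col-0 was 0.22, against 0.23 over all tested loci and 1.51 for the 35S:CO difference. In all 297 the difference between the controls was the smaller, which the choice of these loci favours. The 1 called locus, AT1G64795, is an uncharacterized short gene on chromosome 1 (24082579 to 24082848). It stood at 122 and 65.5 FPKM at ZT4 and 70.6 and 39.8 FPKM at ZT16 in Col-0, and at 0, 0, 2.07 and 0 FPKM in co-10 (-5.72 ± 0.46, adjusted p = 0.00243). In 35S:CO it was split by replicate, with 52.8 and 26.2 FPKM in replicate 1 and 0.609 and 0 FPKM in replicate 2, so 35S:CO replicates 1 were like Col-0 and replicates 2 like co-10 at this locus.

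Sequence motifs were counted in the 250 bases before the start of the called loci, on both strands, for the 171 higher, 123 lower and 17107 tested protein-coding loci that could be read. Either form of the CO-responsive element was in 11.7% of the higher loci, 6.50% of the lower and 6.82% of all. The longer form alone was in 8.77%, 4.07% and 3.72%, and the shorter in 4.09%, 2.44% and 3.28%. The G-box CACGTG, bound by bZIP and bHLH factors, was in 15.2%, 8.13% and 7.60%. The abscisic acid element core ACGTGNC, which can overlap the G-box, was in 13.5%, 7.32% and 9.80%. CCAAT, the site of NF-Y, was in 48.0%, 49.6% and 48.1%, and the evening element AAAATATCT in 1.17%, 3.25% and 2.53%. The letters were read in RefSeq TAIR10.1. These shares are descriptions of the letters in these windows, and no test was made on them.

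The called loci were also looked up in 10-day-old seedlings of the same study, 2 libraries of 35S:CO against 2 of Col-0 at ZT16, a comparison added after the petal values were known. In seedlings 11.7% of 19214 tested loci were called, 5.50% higher and 6.22% lower. Of the 173 loci higher in petals, 160 were tested in seedlings, and 113 were called higher there, which is 70.6% of those tested and 10.7% of all seedling increases. Of the 124 lower loci, 73 were tested, and 27 were called lower, which is 37.0% of those tested and 2.26% of all seedling decreases. In each direction 3 loci were called the opposite way. The seedling and petal libraries are separate samples, but may come from the same 35S:CO line.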

How the data were processed

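RNA from petals was made into stranded mRNA libraries, per the labels' protocols. Per the submitters' processing notes, HISAT2, FastQC and the TAIR 10 build were used. The quantifier and annotation were not given in the sources used here. The authors deposited 1 column of FPKM values per library. The deposited header names no unit, so FPKM was inferred: values were fractional and column sums unequal. At the best-fitting read number of each library, 30.2% to 40.4% of low values were whole numbers of reads within 0.02. That is more than evenly spread values would give. Most low values were not whole, so no count model was used.

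Groups came from the labels. Loci with at least 1 FPKM in 2 of 12 libraries were tested with limma 3.58.1 (R 4.3.3, statmod 1.5.0) on log2(FPKM + 1), where fold changes of low genes are understated. Terms were time and 35S:CO. The prior was trended and robust, and p-values were two-sided, Benjamini-Hochberg adjusted over all tested loci, with calls under 0.05. A time by 35S:CO term tested the change with time, and co-10 was compared with Col-0 in 8 libraries. The fit was tested on simulated data first. Since replicates are labelled only as biological, p-values measure the spread between these samples.

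The comparison, gene lists and markers were chosen with earlier results of these data known. Named were CO, up to 15 loci each way with the largest difference, an average log2(FPKM + 1) of 1 or more and separated groups at both times, every called list member (or the 2 with the smallest p), and up to 5 each way for the change with time and for co-10. Of 606 list symbols, 592 gave a locus of the table. A symbol shared by several genes could give a locus other than the one meant, as for BAM3. RefSeq (TAIR10.1) gave names and promoters, and 32548 of 32833 loci had an entry.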

Additional observations from a re-analysis of the deposited data

Results flagged for a closer look

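Among 79 genes described above, 158 control groups of 4 libraries were looked at for a library far from the other 3. Each group held both genotypes at 1 time. By chance about 1 in 20 groups pass the limit used if values are normally spread. That rate does not apply where the other 3 libraries are listed at 0, as any detected level then passes. Such a library was found in 11 groups. In 5 of them a transcript listed at 0 in the other 3 libraries was detected: AT3G50560 at 0.425 FPKM, AT3G47295 at 1.16 FPKM and GBSS1 at 0.316 FPKM in co-10 ZT16 replicate 1, TSF at 0.71 FPKM in Col-0 ZT4 replicate 1, and PR1 at 2.32 FPKM in co-10 ZT4 replicate 2. RBCS2B stood at 128 FPKM in co-10 ZT4 replicate 1, against 50.6 to 56.8 FPKM in the other 3. In the same library JAZ3 was at 5.43 FPKM, against 8.06 to 8.19 FPKM, and SGRL at 19.6 FPKM, against 25.0 to 25.9 FPKM. SWEET15 was at 244 FPKM in Col-0 ZT16 replicate 1, against 101 to 111 FPKM. SQP1 was at 1030 FPKM in co-10 ZT4 replicate 2, against 496 to 507 FPKM. AT2G25510 was at 0.963 FPKM in Col-0 ZT4 replicate 1, against 6.30 to 8.51 FPKM.

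For 13 named loci the 35S:CO difference was not the same at both times by the interaction test. Counted as the ZT16 difference minus the ZT4 difference on the log2(FPKM + 1) scale, it changed by 4.79 for COR15A, 4.59 for CBL6, 4.29 for SQP1, 4.18 for AT3G47295 and 4.07 for BBX25. It changed by 3.88 for BBX30, 3.82 for LHCB2.3 and 3.34 for AT3G62990. It changed by -4.31 for NIT2, -3.39 for HA4, -3.14 for CML38, -2.64 for CYP706A1 and -2.49 for SCRL7.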

How the results depend on the processing

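The 297 calls became 28 against a 2-fold limit, 160 with Col-0 alone as control, 16 at ZT4 alone and 140 to 480 with 1 library left out. With the replicate number as a block (replicate block) there were 290 calls, 258 of them shared with the 297, 21 calls of a change with time and 1 between co-10 and Col-0. Same-numbered libraries of different groups correlated at -0.30 to 0.23 over 15 group pairs, and with 2 replicates this does not settle whether the numbers pair the libraries. Under the block BBX30, BFT, HIS1-3, PLA2-GAMMA and AT5G15030 did not pass in the overall difference, nor CYP706A1, CML38 and SCRL7 in the change with time, and no other named call was lost. The 23 calls of a change with time became 9 at a pseudocount of 0.1, 14 with 6 group means, 13 without the trended and robust prior, 2 against a 2-fold limit and 2 to 83 with 1 library left out. Without 35S:CO ZT4 replicate 1 or 2 they were 4 and 9, without co-10 ZT4 replicate 1, 11, and without Col-0 ZT16 replicate 1 or 2, 13 and 11. The 1 call between co-10 and Col-0 became 0 at a pseudocount of 0.1, 0 with no filter on low values and 7 with 6 group means, with 0 of the 7 shared. It was 1 to 1 with 1 library left out. Scaling moved the split of calls: 221 higher and 115 lower after quantile normalization, and 199 and 93 when rescaled without ribosomal RNA and organelle loci. The rescaling moved the median change with time from -0.02 to -0.13. The split was 194 higher and 286 lower without Col-0 ZT4 replicate 1, and 188 and 160 without co-10 ZT4 replicate 2. Of 56 named calls, 34 held without each library in turn and 11 under every setting, and no named gene changed direction. The cause of these shifts was not tested. The depth is unknown, so the counting error of levels near 0 cannot be stated.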

Other observations

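Among the called loci, 4 genes of photorespiratory enzymes were picked after their values were seen, with no list behind them and no count of how many such genes were tested. GLDP1, a subunit of the glycine decarboxylase, stood at 218 and 202 FPKM at ZT4 and at 269 and 294 FPKM at ZT16, against 13.7, 50.5 and 139.6 FPKM (lowest, median, highest) in the controls, a rise of 2.42 ± 0.41 (limma, adjusted p = 0.00733). CAT2, the main leaf catalase, stood at 334, 262, 354 and 278 FPKM against 21.2 to 115 FPKM and rose by 2.82 ± 0.29 (adjusted p = 1.33e-04). All 4 overexpressor libraries were above all controls for both genes. The peroxisomal aminotransferases AGT and GGT1 rose by 1.59 ± 0.26 (adjusted p = 0.00533) and 1.47 ± 0.20 (adjusted p = 0.00161).

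CYP707A1 and CYP707A4, which break down abscisic acid, were picked in the same way. CYP707A1 stood at 17.0 and 20.8 FPKM in 35S:CO at ZT4 and at 16.6 and 34.2 FPKM at ZT16, against 1.87 to 8.05 FPKM in the controls (1.97 ± 0.30, adjusted p = 0.00387). CYP707A4 stood at 18.8, 18.4, 30.9 and 27.1 FPKM against 0 to 11.3 FPKM (2.63 ± 0.45, adjusted p = 0.00754). Neither overlapped with the controls.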
